A study of Mus musculus with 12 samples.

Results

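The genes described here were 9 genes of acetylcholine signalling, chosen by name from the 21872 gene symbols of a bulk RNA-seq count table. They were Chat, Slc18a3, Slc5a7, Ache, Lhx8 and Isl1, which mark cholinergic neurons or break down their transmitter, and the nicotinic receptor subunit genes Chrna4, Chrnb2 and Chrna7. All 9 were found in the table under these symbols. RNA was taken from the striatum and the prefrontal cortex of C57BL/6J mice aged 24 days. The 4 groups of 3 libraries each were the striatum of the attention-deficit/hyperactivity disorder (ADHD) model, called lesioned striatum here, the striatum of control mice, the prefrontal cortex of the model, called lesioned prefrontal cortex here, and the prefrontal cortex of control mice. The model was made with 6-hydroxydopamine (6-OHDA), a toxin taken up by dopamine neurons, which it destroys. The sources used here do not give the dose, the route and the day of the injection, the treatment of the control mice or the sex of the mice. They also leave unsaid whether replicate libraries stem from different mice, so every p-value refers to the spread among these libraries, which may be technical.

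Acetylcholine is made from choline and acetyl coenzyme A by choline acetyltransferase (Chat), loaded into synaptic vesicles by the vesicular acetylcholine transporter (Slc18a3) and broken down outside the cell by acetylcholinesterase (Ache), after which the high-affinity choline transporter (Slc5a7) takes choline back into the terminal. In the striatum the transmitter comes mainly from large, sparse cholinergic interneurons, which depend on the LIM-homeodomain transcription factors Lhx8 and Isl1, while the cortex receives most of its cholinergic fibres from neurons of the basal forebrain. Nicotinic receptors are pentameric cation channels: Chrna4 and Chrnb2 subunits form the common high-affinity receptor of the brain, which is also found on dopamine terminals in the striatum, and Chrna7 subunits form a homomeric receptor with high calcium permeability.

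Chat and Slc18a3 form one locus on the minus strand of chromosome 14. In the GENCODE vM21 annotation of mm10, Chat spans 32408203 to 32465989 and the single-exon gene Slc18a3 spans 32462438 to 32464850, inside the first intron of Chat. Their exons share 0 bases, with 956 bases between the first Chat exon (32465807 to 32465989) and Slc18a3 and 395 bases between Slc18a3 and the next Chat exon, so the counts of the pair do not draw on the same exonic positions in this annotation. The other members lie apart: Slc5a7 on chromosome 17 (54273590 to 54299034, minus strand), Ache on chromosome 5 (137287519 to 137294466, plus strand), Lhx8 on chromosome 3 (154306294 to 154330659, minus strand), Isl1 on chromosome 13 (116298281 to 116309689, minus strand), Chrna4 on chromosome 2 (181018380 to 181043546, minus strand), Chrnb2 on chromosome 3 (89746195 to 89764632, minus strand) and Chrna7 on chromosome 7 (63098692 to 63212569, minus strand). Exons of Chrnb2 share 1365 bases with Adar on the opposite strand and exons of Ache share 98 bases with Gm42456 on the opposite strand. The sources used here do not give the strand setting of the counting, so the counts of Chrnb2 and Ache may hold reads of these partners.

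The promoter windows of the 3 genes that define the cholinergic terminal and of Chrna7, the member that passed the test of the lesion in prefrontal cortex, are shown because the first 3 have similar profiles over the libraries. Each is the RefSeq window of GRCm38.p6 from 250 bases before to 50 bases after the gene's start, on the coding strand, at chr14:32465860-32466159 for Chat, chr14:32464801-32465100 for Slc18a3, chr17:54298985-54299284 for Slc5a7 and chr7:63212477-63212776 for Chrna7. Capitals mark matches to 3 motifs searched on both strands, which do not overlap one another here. TGACG is the core of the cyclic AMP response element and reads CGTCA on the other strand. CACGTG is an E-box and reads alike on both strands. TAAT is the homeodomain core, as bound by LIM-homeodomain factors, and reads ATTA on the other strand.
Chat: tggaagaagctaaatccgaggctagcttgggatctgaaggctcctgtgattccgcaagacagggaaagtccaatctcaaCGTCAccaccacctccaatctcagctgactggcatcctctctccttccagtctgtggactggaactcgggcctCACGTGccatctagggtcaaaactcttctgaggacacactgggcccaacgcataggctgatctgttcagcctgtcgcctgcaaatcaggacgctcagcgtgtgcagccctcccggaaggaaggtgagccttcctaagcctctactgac
Slc18a3: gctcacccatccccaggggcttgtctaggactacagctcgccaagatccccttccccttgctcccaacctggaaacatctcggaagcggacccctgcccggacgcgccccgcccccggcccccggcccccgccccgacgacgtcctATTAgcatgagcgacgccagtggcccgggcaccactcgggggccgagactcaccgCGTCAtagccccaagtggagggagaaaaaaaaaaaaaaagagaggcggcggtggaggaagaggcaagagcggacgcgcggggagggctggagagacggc
Slc5a7: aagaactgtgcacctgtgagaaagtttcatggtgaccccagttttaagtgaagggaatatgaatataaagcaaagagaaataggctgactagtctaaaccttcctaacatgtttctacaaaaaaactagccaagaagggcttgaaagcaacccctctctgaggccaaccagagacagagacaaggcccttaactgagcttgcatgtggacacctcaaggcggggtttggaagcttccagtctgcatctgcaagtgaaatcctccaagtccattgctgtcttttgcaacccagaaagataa
Chrna7: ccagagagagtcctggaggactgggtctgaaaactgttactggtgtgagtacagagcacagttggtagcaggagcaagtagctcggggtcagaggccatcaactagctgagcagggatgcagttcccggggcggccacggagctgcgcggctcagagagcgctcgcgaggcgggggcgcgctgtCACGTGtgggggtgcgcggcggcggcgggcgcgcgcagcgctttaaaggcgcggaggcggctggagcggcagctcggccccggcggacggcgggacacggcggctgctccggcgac

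The windows of all 9 members were found in the RefSeq table. TGACG stood in 4 of the 9 windows (Chat, Slc18a3, Isl1 and Chrnb2) and in 20.8% of all 32851 mouse windows of this length, and the full palindrome TGACGTCA, which contains it, stood in 0 of the 9 and in 1.79% of all. CACGTG stood in 3 of the 9 (Chat, Ache and Chrna7) and in 7.15% of all. TAAT stood in 2 of the 9 (Slc18a3 and Isl1) and in 58.0% of all. The windows of Chat and Slc5a7 were 55.7% and 44.7% G or C, while those of Slc18a3 and Chrna7 were 67.0% and 70.0%, against a mean of 53.8% ± 11.3 (SD) over all windows. The matches describe letters only and say nothing of binding.

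Library totals lay between 15078631 and 20925452 counts, so 3 counts, the floor used here, corresponded to 0.143 to 0.199 CPM (counts scaled to a common library total); this floor covers counting error only. The striatal libraries differed in their levels of the marker genes of several tissues. The summed level of 8 genes of striatal projection neurons was 9609, 3760 and 5347 CPM in lesioned striatum, against 2450, 1628 and 2798 CPM in control striatum. For the lesion in striatum edgeR called 0 of these 8 genes, beside 0.028% of all genes. Whether the tissue taken or the expression of these genes differed was not tested. Lesioned striatal library 1 stood apart with the highest such sum, with 83.1 CPM for 5 genes of basal forebrain and pallidal neurons (207 to 339 CPM in the other striatal libraries) and with 77.1 CPM for 5 genes of hypothalamus, preoptic area and septum (122 to 263 CPM in the others; 88.9 CPM, against 246 to 723 CPM, with Gal, Hcrt, Oxt and Sim1, whose counts are all multiples of 11 and which were left out of the tests). Control striatal library 2 stood apart with 2197 CPM for 5 choroid plexus genes, against 5.19 to 45.1 CPM in the other striatal libraries, and with 920 CPM for 6 genes of cortical excitatory neurons, against 20.6 to 255 CPM. Both libraries were kept, and the striatal lesion estimates of the members are also given without them. Of the 4 dopamine neuron genes, summed levels were 7.13 to 8.10 CPM in lesioned prefrontal cortex, against 10.4 to 17.2 CPM in control prefrontal cortex, and 20.3 to 37.6 CPM in lesioned striatum, against 31.0 to 45.3 CPM in control striatum. Ddc, the enzyme that makes dopamine from its precursor, fell in prefrontal cortex by 0.80 on the log2 scale (SE 0.14, edgeR quasi-likelihood adjusted p = 0.0063). It was the only 1 of the 4 called there, beside 5.74% of all genes. Th fell by 0.96 and was not called (SE 0.31, adjusted p = 0.0961 by the same test), and Slc6a3 and Slc18a2 were below the filter on low counts. In striatum 0 of the 4 were called, and the estimate of Th was 0.18 (SE 0.22).

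Cholinergic neuron genes were far more abundant in striatum than in prefrontal cortex, with or without the lesion. After the lesion, Chat, Slc5a7 and Slc18a3 stood 4.40 to 4.87 log2 units higher in striatum. Ache stood 1.32 and Chrnb2 0.31 higher, and Chrna4 1.41 lower. Lhx8 and Isl1 stood 6.53 and 6.09 higher. In controls the same 8 genes passed the test in the same directions (7 higher and 1 lower in striatum), and Chrna7 passed it in neither condition. The test was edgeR's quasi-likelihood test over the 14545 genes that passed the filter on low counts, with all 12 libraries in 1 fit and p-values adjusted by Benjamini and Hochberg. By this test 48.4% of all genes were called after the lesion (24.4% higher and 24% lower in striatum) and 42.9% in controls (21.7% higher and 21.3% lower), so a call between regions was common. The ranges of the regions did not overlap for the same 8 members, beside 58.6% of all genes after the lesion and 59.3% in controls. Lhx8 and Isl1 passed the filter only through the striatal libraries and therefore had to differ. Their calls, ranges and estimates are no support for a regional difference.

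**Figure D1:**
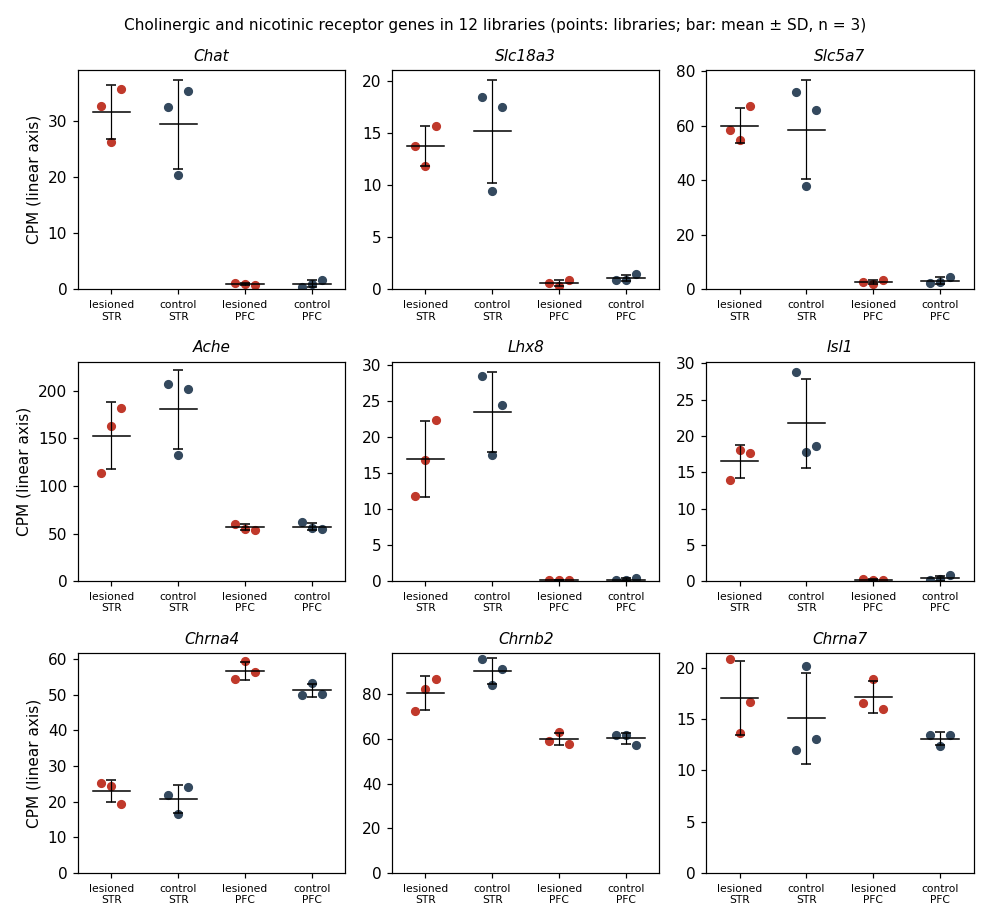
Level of each of the 9 genes (vertical axes, CPM, linear and starting at 0) in lesioned striatum (STR), control striatum, lesioned prefrontal cortex (PFC) and control prefrontal cortex. Points are libraries, the horizontal bar is the mean and the whisker the SD over 3 libraries; Chat ran at 20.3 to 35.7 CPM in the 6 striatal libraries and at 0.430 to 1.66 CPM in the 6 prefrontal libraries.

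Chat, which makes acetylcholine, had 32.6, 26.3 and 35.7 CPM in lesioned striatum, against 1.20, 0.912 and 0.856 CPM in lesioned prefrontal cortex. In controls Chat had 32.5, 20.3 and 35.2 CPM in striatum, against 0.430, 0.904 and 1.66 CPM in prefrontal cortex. Every striatal library lay far above every prefrontal one. The difference was 4.87 log2 units after the lesion (SE 0.32, adjusted p = 4.75e-07) and 4.79 in controls (SE 0.33, adjusted p = 8.48e-07). The 95% interval ran from 17.9-fold to 47.6-fold after the lesion and from 16.8-fold to 45.7-fold in controls. The prefrontal values rest on 9 to 25 counts a library, which is above the floor in each.

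Slc18a3, the vesicular transporter, had 13.7, 11.8 and 15.7 CPM in lesioned striatum, against 0.652, 0.285 and 0.856 CPM in lesioned prefrontal cortex. In controls it had 18.4, 9.47 and 17.5 CPM in striatum, against 0.908, 0.904 and 1.46 CPM in prefrontal cortex. The regions did not overlap in either condition, with log2 differences of 4.40 after the lesion (SE 0.35, adjusted p = 1.56e-06) and 3.66 in controls (SE 0.32, adjusted p = 4.46e-06).

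Slc5a7, the choline transporter, had 58.3, 54.8 and 67.1 CPM in lesioned striatum, against 2.61, 1.94 and 3.37 CPM in lesioned prefrontal cortex. In controls it had 72.2, 37.9 and 65.5 CPM in striatum, against 2.34, 2.71 and 4.58 CPM in prefrontal cortex. The regions again did not overlap, with log2 differences of 4.40 after the lesion (SE 0.29, adjusted p = 4.30e-07) and 4.06 in controls (SE 0.28, adjusted p = 8.77e-07).

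The transcription factors had few counts in prefrontal cortex and passed the filter only through the striatal libraries. The sizes of their regional differences are therefore not ranked against those of the other members. Lhx8 had 198, 295 and 371 counts in lesioned striatum, against 4, 2 and 3 counts in lesioned prefrontal cortex, and Isl1 had 233, 317 and 292 counts in lesioned striatum, against 6, 3 and 3 counts. In control striatum Lhx8 had 457, 286 and 451 counts, against 2, 2 and 6 counts in control prefrontal cortex, and Isl1 had 461, 289 and 345 counts, against 2, 6 and 12 counts. Prefrontal counts of the pair were thus at or near the floor of 3 counts in most libraries. The log2 difference of Lhx8 was 6.53 after the lesion (95% interval 5.65 to 7.40) and 6.74 in controls (5.89 to 7.59), and that of Isl1 was 6.09 (5.23 to 6.95) and 5.64 (4.85 to 6.43). Isl1 is also active in developing direct-pathway projection neurons and in hypothalamic neurons, and Lhx8 in basal forebrain neurons, so neither is particular to the interneurons.

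Ache, the enzyme that ends the signal, was expressed in both regions. It had 113.9, 162.5 and 181.6 CPM in lesioned striatum, against 60.1, 55.1 and 54.1 CPM in lesioned prefrontal cortex, and 207.2, 132.2 and 201.5 CPM in control striatum, against 61.6, 55.6 and 54.5 CPM in control prefrontal cortex. All striatal values lay above all prefrontal ones. The log2 difference was 1.32 after the lesion (SE 0.17, adjusted p = 5.28e-05) and 1.498 in controls (SE 0.17, adjusted p = 2.79e-05).

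The 3 nicotinic subunit genes had 3 different regional patterns. Chrna4 had 25.1, 24.4 and 19.5 CPM in lesioned striatum, against 54.4, 59.4 and 56.4 CPM in lesioned prefrontal cortex, and 21.9, 16.5 and 24.2 CPM in control striatum, against 49.9, 53.4 and 50.3 CPM in control prefrontal cortex. It was lower in striatum in every library, by a log2 difference of -1.41 after the lesion (SE 0.13, adjusted p = 5.08e-06) and -1.45 in controls (SE 0.13, adjusted p = 6.18e-06). Its partner Chrnb2 went the other way, with 72.4, 82.4 and 87.1 CPM in lesioned striatum, against 59.2, 63.2 and 57.9 CPM in lesioned prefrontal cortex, and 95.9, 84.1 and 91.5 CPM in control striatum, against 61.9, 61.8 and 57.3 CPM in control prefrontal cortex. The Chrnb2 ranges did not overlap, but the differences were small, 0.31 after the lesion (SE 0.07, adjusted p = 0.0034) and 0.43 in controls (SE 0.07, adjusted p = 5.09e-04).

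Chrna7 had 20.9, 13.7 and 16.6 CPM in lesioned striatum, against 16.5, 18.9 and 15.9 CPM in lesioned prefrontal cortex, and 12.01, 20.2 and 13.1 CPM in control striatum, against 13.5, 12.4 and 13.4 CPM in control prefrontal cortex. The regions overlapped in both conditions. The log2 difference was -0.11 after the lesion (95% interval -0.54 to 0.32) and 0.05 in controls (-0.40 to 0.49). Without lesioned striatal library 1 and control striatal library 2 it was -0.32 after the lesion and passed the test (adjusted p = 0.0314), and it was -0.22 in controls (adjusted p = 0.144).

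**Figure D2:**
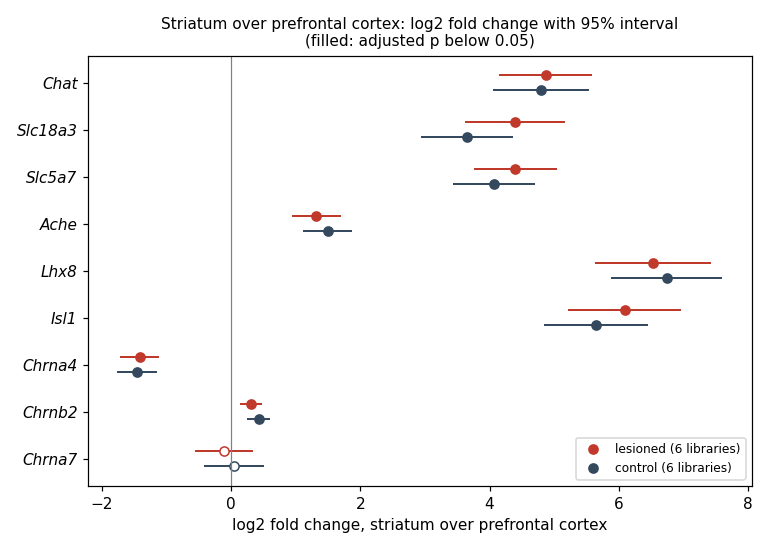
Difference between striatum and prefrontal cortex for each gene (horizontal axis, log2 fold change, striatum over prefrontal cortex) in lesioned and in control mice. Points are edgeR estimates, lines their 95% intervals and filled points passed the test at an adjusted p below 0.05. Lhx8 and Isl1 lie farthest right but passed the filter on low counts only through striatal libraries. Chrna4 is the only gene left of 0 with a filled point, and Chrna7 has open points whose lines cross 0.

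Markers of basal forebrain tissue, whose neurons also hold the cholinergic genes, were likewise higher in striatum. The 5 marker genes of basal forebrain and pallidal neurons summed to 83.1 to 241 CPM in lesioned striatum, against 36.4 to 37.2 CPM in lesioned prefrontal cortex, and to 207 to 339 CPM in control striatum, against 38.6 to 41.5 CPM in control prefrontal cortex. All 5 were called higher in striatum in both conditions, beside 24.4% of all genes after the lesion and 21.7% in controls. Nkx2-1 and Gbx1 were at 0 in at least 1 prefrontal library. Both passed the filter only through the striatal libraries and therefore had to differ. Nkx2-1 and Lhx6 are also found in striatal interneurons. Most of the prefrontal sum was Lhx6 (22.2 to 24.6 CPM) and Zic1 (11.1 to 18.9 CPM). Which cells gave these prefrontal values was not tested. How much of the cholinergic signal came from tissue beyond the striatum was not tested.

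Scaled to the length of their annotated exons, the genes fell into a different order in each region. In lesioned striatum Ache was highest at 33.0 ± 7.55 CPM per kilobase (SD, n = 3), followed by Slc5a7 at 10.6 ± 1.12 and Chrnb2 at 9.62 ± 0.891, and Chrna7 was lowest at 3.79 ± 0.804. In lesioned prefrontal cortex Ache and Chrna4 led with 12.2 ± 0.692 and 11.3 ± 0.503 CPM per kilobase, and Chat, Lhx8 and Isl1 were lowest at 0.211 ± 0.040, 0.064 ± 0.017 and 0.054 ± 0.019. Ache stood clear of the next gene in lesioned and in control striatum, and every other pair of neighbours in the striatal orders overlapped in range. In lesioned prefrontal cortex Ache and Chrna4 overlapped, while Chrna4, Chrnb2, Chrna7 and Slc5a7 lay clear of one another. In control striatum Ache stood at 39.0 ± 9.03 CPM per kilobase, followed by Chrnb2 at 10.8 ± 0.707 and Slc5a7 at 10.4 ± 3.23, and in control prefrontal cortex Ache and Chrna4 led with 12.4 ± 0.833 and 10.2 ± 0.382.

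The lesion changed none of the 9 genes in striatum at the level of the test. By edgeR on the 6 striatal libraries, 0 of 9 members were called among 14288 genes, and 0 had an unadjusted p below 0.05. This test called 4 genes in all, 0.028% of those tested, and 17.3% had an unadjusted p below 0.05. DESeq2, which called 3.7% of all genes, and limma voom, which called 2.18%, also called 0 of 9. At such shares 0 of 9 says little about the members. Without lesioned striatal library 1 and control striatal library 2, 0 of 9 were called, beside 0.383% of all genes. Of the 9, 3 (Ache, Lhx8 and Slc18a3, each with an estimate below 0) then had an unadjusted p below 0.05, beside 14.7% of all genes. The fit of all 12 libraries, in which 7.15% of all genes were called, called 0 of 9 as well. All 9 members overlapped between lesioned and control striatum, whereas 26.4% of all genes did not overlap. The intervals below say how large a change the data would still allow. In these bulk libraries fewer cells of a type and less RNA per cell cannot be told apart.

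Chat averaged 31.5 ± 4.80 CPM in lesioned striatum and 29.3 ± 7.91 CPM in control striatum (SD, n = 3 each), a log2 fold change of 0.17 with a 95% interval of -0.34 to 0.67. Slc5a7 averaged 60.0 ± 6.33 and 58.5 ± 18.2 CPM in lesioned and control striatum, with a log2 fold change of 0.10 (-0.42 to 0.62). Slc18a3 averaged 13.7 ± 1.91 and 15.1 ± 4.93 CPM in lesioned and control striatum, with a log2 fold change of -0.08 (-0.66 to 0.51). The low library of all 3 genes was control striatal library 2. Without it and lesioned striatal library 1, the log2 fold changes were -0.10, -0.15 and -0.36 for Chat, Slc5a7 and Slc18a3, with adjusted p-values of 0.803, 0.592 and 0.336, so the sign for Chat and Slc5a7 rests on those libraries.

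The transcription factors had the lowest estimates. Lhx8 averaged 17.0 ± 5.32 CPM in lesioned striatum and 23.5 ± 5.55 CPM in control striatum, with an estimate of -0.42 (SE 0.24, 95% interval -0.97 to 0.14, adjusted p = 0.396). Isl1 averaged 16.5 ± 2.29 CPM in lesioned striatum and 21.8 ± 6.14 CPM in control striatum, with an estimate of -0.34 (SE 0.19, 95% interval -0.78 to 0.11, adjusted p = 0.388). The lowest library of both was lesioned striatal library 1, which also had the lowest sum of basal forebrain markers, and the highest was control striatal library 1, which had the highest such sum. Without lesioned striatal library 1 and control striatal library 2 the estimates were -0.41 for Lhx8 and -0.38 for Isl1 (adjusted p = 0.282 and 0.402). The part of the neighbouring tissue in these values was not tested.

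Ache averaged 152.7 ± 34.9 CPM in lesioned striatum and 180.3 ± 41.8 CPM in control striatum, with a log2 fold change of -0.19 (95% interval -0.66 to 0.28). Chrnb2 averaged 80.6 ± 7.46 and 90.5 ± 5.93 CPM in lesioned and control striatum, and its interval of -0.29 to 0.07 was the narrowest of the 9. Chrna4 averaged 23.0 ± 3.08 and 20.8 ± 3.95 CPM, with a log2 fold change of 0.21 (-0.20 to 0.61), and Chrna7 averaged 17.1 ± 3.62 and 15.1 ± 4.44 CPM, with 0.24 (-0.36 to 0.85). Lesioned and control libraries overlapped for each of these 4 genes. Without lesioned striatal library 1 and control striatal library 2 the estimates were -0.22 for Ache (adjusted p = 0.280), -0.12 for Chrnb2 (0.531), -0.04 for Chrna4 (0.911) and 0.30 for Chrna7 (0.395).

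**Figure D3:**
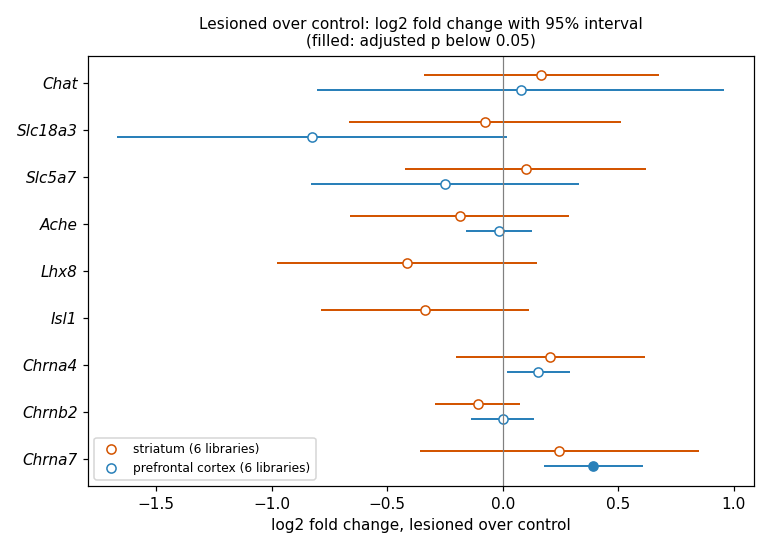
Effect of the lesion on each gene (horizontal axis, log2 fold change, lesioned over control) in striatum and in prefrontal cortex, each fitted on its own 6 libraries. Points are edgeR estimates, lines their 95% intervals, and the filled point, Chrna7 in prefrontal cortex, passed the test at an adjusted p below 0.05; Lhx8 and Isl1 were below the filter on low counts in prefrontal cortex and have no point there.

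In prefrontal cortex 1 member, the nicotinic subunit gene Chrna7, was called higher after the lesion. The call did not hold when any single prefrontal library was left out. Of the 9 members, 7 passed the filter and were tested, and Lhx8 and Isl1 did not. Chrna7 alone was called, 1 of 7, beside 5.74% of the 14018 genes tested (3.45% called higher). Chrna7 and Chrna4 had an unadjusted p below 0.05 by edgeR, 2 of 7, beside 20.6% of all genes. At such shares these counts say little about the members as a set. The ranges of the groups did not overlap for 3 of the 7 (Chrna7 and Chrna4 higher, Slc18a3 lower), beside 26.1% of all genes (12.3% higher and 13.7% lower).

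Chrna7 had 16.5, 18.9 and 15.9 CPM in lesioned prefrontal cortex, against 13.5, 12.4 and 13.4 CPM in control prefrontal cortex. Every lesioned library lay above every control library. It rose by 0.39 on the log2 scale (SE 0.10, 95% interval 0.18 to 0.60, adjusted p = 0.0315), a fold of 1.14 to 1.52 over that interval. The call was lost when any 1 of the 6 prefrontal libraries was left out, with estimates of 0.32 to 0.44 and adjusted p-values of 0.0566 to 0.159, and with the replicate number as a block (adjusted p = 0.0529). In the fit of all 12 libraries, whose shared spread is wider than that of prefrontal cortex and which called 0.206% of all genes, the estimate was 0.41 and the adjusted p 0.502.

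Chrna4 had 54.4, 59.4 and 56.4 CPM in lesioned prefrontal cortex, against 49.9, 53.4 and 50.3 CPM in control prefrontal cortex, without overlap. Its log2 fold change was 0.15 (SE 0.06, 95% interval 0.02 to 0.29), and it was not called (adjusted p = 0.167). Chrnb2, with which it assembles, averaged 60.1 ± 2.78 CPM in lesioned and 60.3 ± 2.63 CPM in control prefrontal cortex, with an interval of -0.13 to 0.13 around its log2 fold change. The count of Chrna4 over that of Chrnb2 in the same library was 0.919, 0.940 and 0.973 in lesioned prefrontal cortex, against 0.806, 0.864 and 0.877 in control prefrontal cortex. These ratios did not overlap (two-sided exact permutation p = 0.1, the smallest that 3 against 3 libraries can give), beside 17.9% of 14017 genes set over Chrnb2 (9.41% higher), and in striatum the same ratio overlapped, at 0.347, 0.296 and 0.224 in lesioned and 0.228, 0.196 and 0.264 in control libraries. The ratio was chosen after the values had been seen.

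The genes of the cholinergic terminal were near the lower end of detection in prefrontal cortex. Slc18a3 had 13, 5 and 15 counts in lesioned prefrontal cortex, against 19, 15 and 22 counts in control prefrontal cortex, or 0.652, 0.285 and 0.856 CPM against 0.908, 0.904 and 1.46 CPM. The groups did not overlap in CPM, and the log2 fold change of -0.82 had a wide interval of -1.66 to 0.01 (adjusted p = 0.252). Chat had 24, 16 and 15 counts in lesioned prefrontal cortex, against 9, 15 and 25 counts in control prefrontal cortex, and its 95% interval ran from 0.574-fold to 1.94-fold. Slc5a7 had 52, 34 and 59 counts, against 49, 45 and 69 counts, with a log2 fold change of -0.25 (-0.82 to 0.33). Ache, at 56.4 ± 3.20 CPM in lesioned and 57.2 ± 3.85 CPM in control prefrontal cortex, was measured far more closely, with an interval of -0.16 to 0.12.

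The effect of the lesion was not shown to differ between striatum and prefrontal cortex for any member. In the test of the difference itself, with all 12 libraries in 1 edgeR fit, 0 of 9 members were called, beside 0.0825% of all genes. An unadjusted p below 0.05 was found for 0 of the 9, beside 1704 of the 14545 genes tested. DESeq2, which called 0.798% of all genes, and limma voom, which called 0.591%, also called 0 of 9. For Chrna7 the effect in striatum minus that in prefrontal cortex was -0.15 (95% interval -0.77 to 0.47), so its call in prefrontal cortex and not in striatum was not shown to be a difference between the regions. The largest estimate was that of Slc18a3, 0.74 (-0.40 to 1.87), which rests on the low prefrontal counts.

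Each member was also set over the Chat count of the same striatal library. For a gene active only in Chat-expressing cells this leaves out how much of the library those cells made up. Ache, Isl1 and the nicotinic subunit genes are active in other cells too. Whether Lhx8 was limited to Chat-expressing cells here was not tested. Its Pearson correlation of log2 CPM with Chat was 0.252 over the 6 striatal libraries. Slc5a7 over Chat was 1.79, 2.08 and 1.88 in lesioned striatum, against 2.23, 1.86 and 1.86 in control striatum, and overlapped. Slc18a3 over Chat was 0.421, 0.450 and 0.438 in lesioned striatum, against 0.568, 0.465 and 0.497 in control striatum, and Lhx8 over Chat was 0.363, 0.639 and 0.628 in lesioned striatum, against 0.881, 0.864 and 0.694 in control striatum. Neither of these overlapped, each being lower in lesioned striatum (two-sided exact permutation p = 0.1 for each, the smallest possible here). These were 2 of the 8 members set over Chat, beside 5.47% of 14287 genes (3.58% lower), and the comparison was chosen after the values had been seen. Of the 5 basal forebrain markers over Chat, Ngfr, Lhx6 and Gbx1 did not overlap either and were also lower in lesioned striatum, while Nkx2-1 and Zic1 overlapped. With Ngfr this ratio was 0.297, 0.911 and 0.812 in lesioned striatum, against 1.39, 1.34 and 1.34 in control striatum. Whether a different mix of cholinergic neurons in the dissected tissue had a part in the ratios was not tested.

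**Figure D4:**
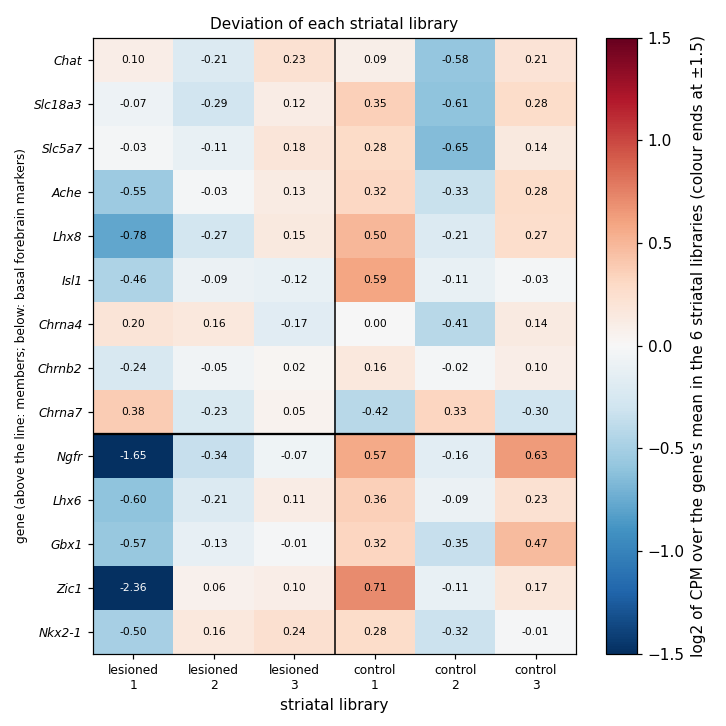
Deviation of each striatal library (columns: lesioned 1 to 3, then control 1 to 3) from the gene's mean over the 6 libraries (colour and printed values, log2 of CPM over the mean). Rows above the line are the 9 members and rows below it 5 marker genes of basal forebrain and pallidal neurons. Chat, Slc18a3 and Slc5a7 share a low value in control library 2. Lhx8, Ache, Isl1, Chrnb2 and all 5 of the basal forebrain markers have their lowest value in lesioned library 1.

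The 3 terminal genes varied together among the 6 striatal libraries. The Pearson correlation of log2 CPM with Chat was 0.937 for Slc5a7 and 0.906 for Slc18a3, against 0.635 for Chrna4, 0.453 for Ache, 0.322 for Chrnb2, 0.252 for Lhx8, 0.052 for Isl1 and -0.153 for Chrna7. Among the genes above 5 CPM that are no members, those most like Chat over these 6 libraries were Fam217b, Nxpe4, Acly, Slc32a1 and Lgi2, with correlations of 0.964 to 0.993 out of 11734 genes ranked. Acly makes the acetyl coenzyme A used by Chat, and Slc32a1 loads the inhibitory transmitter GABA into vesicles. Over all 12 libraries the most alike included Slc32a1, Slc10a4, P2ry1 and Nkx2-1, at 0.990 to 0.994, where the difference between the regions sets the value. These correlations describe the libraries, which share depth and dissection with every gene in them, and carry no test.

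Among the other genes of acetylcholine signalling, 2 muscarinic receptor genes rose after the lesion in prefrontal cortex. Of the 5 muscarinic genes, 4 were tested there and 2 were called, beside 5.74% of all genes (3.45% higher), with a median log2 fold change of 0.20 over the 4, beside -0.01 over all genes. Chrm3, a Gq-coupled receptor, had 90.7, 91.4 and 90.8 CPM in lesioned prefrontal cortex, against 70.2, 72.3 and 64.9 CPM in control prefrontal cortex, and rose by 0.40 (SE 0.06, adjusted p = 0.0020). The 2 groups lay far apart. Chrm4, a Gi-coupled receptor found on direct-pathway projection neurons in striatum, had 27.9, 27.3 and 24.5 CPM in lesioned prefrontal cortex, against 20.5, 20.5 and 23.9 CPM in control prefrontal cortex, and rose by 0.31 (SE 0.08, adjusted p = 0.0442). The call of Chrm4 was lost without any 1 of 5 prefrontal libraries (control library 3 excepted; adjusted p of 0.0296 to 0.170 over the 6), and both calls were lost in the fit of all 12 libraries (adjusted p = 0.135 for Chrm3 and 0.662 for Chrm4). That of Chrm4 was also lost with the replicate number as a block (adjusted p = 0.0725) and with the genes of multiples of 11 kept in the test (0.0569). The other 2 were not called: Chrm1 had an estimate of 0.09 (SE 0.05, adjusted p = 0.347), and Chrm2 had -0.22 (SE 0.09, adjusted p = 0.196), with all its lesioned libraries below all its control libraries.

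In striatum 0 of the 5 muscarinic genes were called by edgeR on the 6 striatal libraries (0.028% of all genes) and 0 by limma voom (2.18% of all genes). Chrm4 had an unadjusted p below 0.05 in edgeR. It was called by DESeq2 (3.7% of all genes) and by edgeR in the fit of all 12 libraries (7.15% of all genes). The shared spread of that fit is narrower than that of striatum alone (biological coefficient of variation 11.3% against 14.9%), so its striatal p-values may be too small. Chrm4 had 75.5, 38.0 and 49.9 CPM in lesioned striatum, against 30.4, 25.4 and 30.4 CPM in control striatum, without overlap, and an estimate of 0.997 (SE 0.26, adjusted p = 0.183; 0.0119 by DESeq2 and 0.0242 by edgeR on all 12 libraries). Its highest library was lesioned striatal library 1, which also had the highest sum of projection neuron markers; all 8 of these markers had estimates above 0, at 1.18 to 1.86. Without that library and control striatal library 2 the estimate for Chrm4 was 0.56 (adjusted p = 0.130). Chrm2, the Gi-coupled autoreceptor of cholinergic neurons, had 17.1, 38.7 and 36.1 CPM in lesioned striatum, against 49.3, 28.1 and 49.5 CPM in control striatum, and overlapped.

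The other 4 lists of genes of acetylcholine signalling and cholinergic neurons held 0 called genes in either region by edgeR on the region's 6 libraries, and 1, Slc17a8 in striatum, by DESeq2, limma voom and edgeR on all 12 libraries. Of all genes, edgeR on the region's libraries called 0.028% in striatum and 5.74% in prefrontal cortex. DESeq2, limma voom and edgeR on all 12 libraries called 3.7%, 2.18% and 7.15% in striatum, and 6.01%, 7.51% and 0.206% in prefrontal cortex. Unadjusted p-values below 0.05 in edgeR were found for Colq, Prima1, Ngfr and Slc17a8 in striatum and for Chrnb3, Acly, Ly6h, Lypd6 and Zic1 in prefrontal cortex. With the muscarinic genes these were 5 of 35 list genes tested in striatum (14.3%), beside 17.3% of all genes, and 8 of 31 in prefrontal cortex (25.8%), beside 20.6% of all genes. Of the 13 other nicotinic subunit genes, 5 passed the filter in each region; the widest estimates were -1.25 for Chrna10 in striatum (SE 0.55, adjusted p = 0.294) and 0.50 for Chrnb3 in prefrontal cortex (SE 0.22, adjusted p = 0.213). Of the 9 genes of choline supply and acetylcholine breakdown, 9 were tested in striatum and 8 in prefrontal cortex. Prima1, which anchors Ache in neuronal membranes, had 21.9, 15.03 and 15.2 CPM in lesioned striatum, against 11.6, 10.02 and 13.5 CPM in control striatum, without overlap (log2 fold change 0.64, SE 0.21, adjusted p = 0.220). Of the 8 chaperones and Ly6 modulators of nicotinic receptors, all were tested in both regions. Lypd6 had the lowest p in prefrontal cortex, with -0.22 (SE 0.07, adjusted p = 0.101). In striatum 7 of the 8 had estimates below 0, at a median of -0.22 beside a median of 0.00 over all genes. By edgeR 0 of the 8 had an unadjusted p below 0.05 there. The estimate of Ly6e was 0.087 without lesioned striatal library 1 and control striatal library 2.

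Of the 9 genes of cholinergic neuron development and trophic support, 8 were tested in striatum and 6 in prefrontal cortex. Slc17a8, the vesicular glutamate transporter that striatal cholinergic interneurons also use, had 25.0, 15.2 and 19.4 CPM in lesioned striatum, against 13.0, 11.2 and 10.5 CPM in control striatum. The groups did not overlap, and the log2 fold change of 0.85 (SE 0.21) missed the threshold by edgeR (adjusted p = 0.181) and passed it by DESeq2 (0.0163), by limma voom (0.0481) and in the fit of all 12 libraries (0.0268). The shared spread of that last fit is narrower than that of striatum alone. Its highest library was lesioned striatal library 1, and without that library and control striatal library 2 the estimate was 0.59 (adjusted p = 0.177). Ngfr, a neurotrophin receptor of basal forebrain cholinergic neurons, had 9.66, 23.97 and 29.0 CPM in lesioned striatum, against 45.2, 27.2 and 47.1 CPM in control striatum. Its log2 fold change was -0.89 (SE 0.36, adjusted p = 0.274), and without lesioned striatal library 1 and control striatal library 2 it was -0.77 and passed the test (adjusted p = 0.0455). Of these 2 libraries, the first had the lowest Ngfr and the second the lowest Ngfr of the controls.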

How the data were processed

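The authors deposited 1 table of read counts per gene symbol for the 12 libraries. Per the labels' protocols, poly(A) RNA went into stranded libraries read as pairs. Per the submitters' processing notes, reads were aligned to mm10 with STAR 2.7.1a and counted with featureCounts; annotation, strand setting and multi-mapping rule: not given in the sources used here. Of the table's genes, 1830 hold only multiples of 11 and are at 0 in lesioned prefrontal library 1. They carry 0.144% of all counts, include 0 of the 9 members and 6 of the 85 genes of all lists, and were left out of the main tests.

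Counts were tested in R 4.3.3 with edgeR 4.0.16 (quasi-likelihood, TMM, filterByExpr, two-sided p adjusted by Benjamini and Hochberg, called below 0.05). The lesion was tested on the 6 libraries of each region alone, because the libraries spread differently in the regions (biological coefficient of variation 14.9% in striatum, 5.78% in prefrontal cortex); the difference of the effects and the regions were tested on all 12 libraries. Scripts were tested on simulated counts. Standard errors were the log2 fold change over the square root of F. Alternatives used DESeq2 1.42.0, limma 3.58.1, other scalings and filters, the genes with multiples of 11, a replicate block and fewer libraries; a correction for GC content and length was chosen after seeing the data. The members and lists were chosen with earlier results of these data known. Named in the text were all members, up to 4 genes of each list with the lowest p in striatum and up to 2 in prefrontal cortex, and the 5 genes most like Chat; 1 gene of these lists is not reported here.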

Additional observations from a re-analysis of the deposited data

How the results depend on the processing

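The count of members called stayed at 0 of 9 for the lesion in striatum and for the difference of the effects, and at 8 of 9 for the regions, under every alternative run, except that 9 of 9 were called after the lesion without lesioned striatal library 1 and control striatal library 2. The counts for the regions include Lhx8 and Isl1, which passed the filter only through the striatal libraries and had to differ. Their calls are no support. For the lesion in prefrontal cortex the 1 call (Chrna7) was 0 with all 12 libraries in 1 fit and 0 to 0 with each library left out. The same-numbered libraries had low correlations of their deviations (-0.112 to 0.092), and the numbers were not taken to pair them. With 3 libraries a group this cannot exclude that a number marks 1 mouse in both regions. Prefrontal libraries control 1, control 3 and lesioned 1 were most like the striatal library of their own number, and the rest were not. With the replicate block, 0 members were called in prefrontal cortex (Chrna7 0.39, edgeR adjusted p = 0.0529, and Chrm4 adjusted p = 0.0725), 0 in striatum and 634 genes in all in prefrontal cortex.

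Uncalled estimates near 0 changed sign. Chrnb2 in prefrontal cortex was 7.1e-04 with RLE factors, 0.0098 with upper-quartile factors, 9.1e-04 with DESeq2, 0.0012 with limma voom and 0.012 with all 12 libraries. With limma voom, Chrna4 in striatum was -0.060, the difference of the effects was -0.33 for Chat, -0.069 for Isl1 and -0.27 for Chrna4, and Chrna7 between regions in controls was -0.13. Without the 2 striatal libraries, the striatal estimates were -0.100 for Chat, -0.15 for Slc5a7, -0.043 for Chrna4 and 0.087 for Ly6e, the difference was -0.20 for Chat and -0.20 for Chrna4, and Chrna7 between regions in controls was -0.22. With each library left out, ranges that crossed 0 were, in prefrontal cortex, -0.34 to 0.62 for Chat, -0.46 to 0.064 for Slc5a7, -0.060 to 0.041 for Ache and -0.046 to 0.028 for Chrnb2; in striatum, -0.037 to 0.32 for Chat, -0.13 to 0.27 for Slc5a7, -0.32 to 0.078 for Slc18a3 and -0.62 to 0.069 for Chrna2 (-0.65 without the 2 libraries; Chrna4 stayed above 0, at 0.064 to 0.33); for the difference, -0.46 to 0.50 for Chat, -1.01 to 0.19 for Lhx8, -0.36 to 1.01 for Isl1, -0.10 to 0.17 for Chrna4 and -0.36 to 0.11 for Chrna7; and for Chrna7 between regions, -0.32 to 0.054 after the lesion and -0.22 to 0.18 in controls.

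Calls over all genes moved more. In prefrontal cortex 804 genes became 30 with all 12 libraries in 1 fit and 195 to 1010 with each library left out. In striatum 4 became 529 with DESeq2, 312 with limma voom, 1040 with all 12 libraries, 55 without the 2 libraries, 0 with the multiples of 11 kept or the block and 0 to 2 with each library left out. For the difference 12 became 116 with DESeq2, 86 with limma voom, 101 without the 2 libraries, 5 with the multiples of 11 kept, 6 with the block and, with each library left out, 0 (without control prefrontal library 1 or 2) to 172 (without lesioned striatal library 2). The causes were not tested. Prefrontal counts of Chat, Slc18a3, Lhx8 and Isl1 were too low to show any but large changes.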
